A study of Mus musculus with 20 samples.

Results

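Cultured mouse cells called C12 were compared with mouse myeloid-derived immunosuppressive cells (MDSC) by RNA sequencing. The comparison took in the 3 libraries labelled C12 and the 3 labelled MDSC, 6 of the 20 libraries of the study, across the 43432 genes of the deposited table. The study cultured mouse host cells that had been kept with SU3 cells, a human glioma stem cell line, and set the lines that grew out against precursor cells. By the labels, C12 are macrophages that became malignant in a dish in which SU3 shared the culture with cells washed from the peritoneal cavity, and MDSC stand as one of the precursor populations. A pair of other lines was used here only to show where C12 differed from them: ih_CTC (3 libraries), transformed macrophages of a peritoneal xenograft, and ih_DCTC (3 libraries), transformed dendritic cells from a culture of SU3 with bone marrow dendritic cells. Below, the other lines are this pair, and C12 was not tested against the remaining lines, ih_BCTC and ih_STC_BM (3 libraries each).

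Every group carried the strain label nude mouse, a host without a working thymus. Every group was also grown in DMEM with 10% fetal bovine serum at 37 °C and 5% CO2, and none received a drug or an engineered allele that the labels name. The malignant cells and the MDSC were described as monoclonal cultures, so C12 may be 1 clone, and no animal, culture, passage or date was given for any library. The p-values below therefore measure only the spread between libraries, which may be technical.

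Macrophages, neutrophils and their suppressive relatives, the MDSC, descend from blood stem cells and share a core of genes for the surface phosphatase CD45, the transcription factor PU.1, Fc receptors, the oxidative burst and, in neutrophils, the granule proteins. Fibroblast-like cells instead build collagen matrix, carry platelet-derived growth factor receptors, use the YAP and TEAD growth regulators and keep a body-position code of Hox genes. MDSC are defined by function, the suppression of T cells, and are usually a mixture of immature neutrophils and monocytes.

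Total expected counts, which are estimated numbers of read pairs per gene, were 9063824 to 10767535 in C12 libraries and 9117398 to 10397525 in MDSC libraries. Of the 43432 genes, 15779 passed the filter on low counts and were tested. A called gene is one with an adjusted p under 0.05 in edgeR's quasi-likelihood test with Benjamini-Hochberg adjustment. The test called 9742 genes, 61.7% of those tested: 4933 (31.3%) were higher and 4809 (30.5%) lower in C12, and the log2 fold change had a median of 0.03 over all genes tested. In 11521 genes (73.0%) the C12 and MDSC libraries did not overlap. The called differences were large, with a median size of 2.55 on the log2 scale, and 386 of them exceeded 10, of which 75 were higher and 311 lower in C12.

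Genes lower in C12 held 7.22% to 14.1% of the counts of C12 libraries and 55.7% to 55.9% of those of MDSC libraries. Genes higher in C12 held 45.7% to 60.8% of the counts of C12 libraries and 12.5% to 12.7% of those of MDSC libraries. The share of reads in introns was 2.52%, 1.02% and 5.23% in C12 libraries 1, 2 and 3, against 10.36%, 10.31% and 9.64% in MDSC libraries. That share moved with the groups without overlap, and its part in the results was not tested. A fit with it as a covariate, possible because the remaining groups of the study span 1.79% to 8.52%, is quoted below where it ends the call of a gene described by its values. That fit called 15 macrophage markers, 17 pattern recognition genes and 10 chemokine receptors lower, against 22, 25 and 14 without the covariate. The MDSC libraries lay very close to one another (root mean square log2 distances of 0.236 to 0.239), while C12 libraries lay 0.581 to 1.1 apart and 2.19 to 2.47 from MDSC.

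The macrophage label of C12 was checked first, and the defining genes of white blood cells were close to absent. All 16 tested pan-leukocyte genes were lower in C12, with a median log2 fold change of -7.57 against 0.03 over all genes tested, and their summed level was 108 to 210 CPM (counts of the gene scaled to a common library size by TMM) in C12 libraries and 10812 to 10938 CPM in MDSC libraries. Spi1 (ENSMUSG00000002111, chromosome 2, 91082390-91115756), which encodes PU.1, had 0.22, 0.11 and 0.235 CPM in C12 libraries, against 225, 208 and 229 CPM in MDSC libraries (log2 fold change -10.07, SE 0.64, adjusted p = 1.0e-09, edgeR). Emr1, the gene of the macrophage surface protein F4/80, had 0.11, 0 and 0.0784 CPM in C12 libraries, against 29.6, 36.2 and 32.8 CPM in MDSC libraries. Every C12 library was far below every MDSC library for both. With 2 counts of Emr1 in all of C12, the ratio was 508-fold lower, with a 95% counting interval of 140 to 4198.

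Of 28 tested macrophage markers, 22 were lower in C12, 5 were higher and 1 did not pass the test (median -5.38, or -5.52 with genes at 0 counts set to their bound). Lyz2 (ENSMUSG00000069516, chromosome 10, 117277334-117282274), the lysozyme of phagocytes, had 21, 20.6 and 10.5 CPM in C12 libraries, against 5502, 5750 and 5765 CPM in MDSC libraries (log2 -8.35, SE 0.57, adjusted p = 2.4e-09, edgeR). Ctss, the cathepsin of antigen-presenting cells, had 0.33, 0.877 and 0.392 CPM in C12 libraries, against 382, 381 and 390 CPM in MDSC libraries. C1qa, a chain of complement C1q, had no counts in C12 libraries and 22.2, 18.4 and 19.2 CPM in MDSC libraries, at least 206-fold lower. In all of these the groups were separated. Measured against the label, then, C12 lacked most of the genes by which a macrophage is recognised, and the line is called C12 throughout.

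The 5 macrophage markers that were higher were Gpnmb, Spp1, Axl, Trem2 and Lgals3. The higher calls fell to 3 with the intron share as a covariate and without C12 libraries 1 and 2. Gpnmb, a lysosomal membrane glycoprotein, had 1081, 1110 and 732 CPM in C12 libraries, against 4.31, 3.25 and 3.41 CPM in MDSC libraries (log2 8.05, SE 0.59, adjusted p = 4.7e-09, edgeR). Spp1, the secreted phosphoprotein osteopontin, had 2457, 1550 and 6154 CPM in C12 libraries, against 60.5, 58.4 and 57.2 CPM in MDSC libraries. Both were higher in every C12 library, as were Axl, a receptor for Gas6 (log2 4.39, SE 0.35), Trem2, a lipid-sensing receptor (2.76, SE 0.62), and Lgals3, the galectin known as Mac-2 (2.46, SE 0.62). With the intron share as a covariate the calls of Trem2 (log2 0.73, adjusted p = 0.487, edgeR) and Lgals3 (log2 -0.49, adjusted p = 0.42, edgeR) were lost. Cd68, a lysosomal marker of phagocytes, had 49.5, 66.1 and 22.6 CPM in C12 libraries, against 57, 58.3 and 54.2 CPM in MDSC libraries. Those groups overlapped, and Cd68 did not pass the test (log2 -0.30, SE 0.58, adjusted p = 0.675, edgeR).

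**Figure D1:**
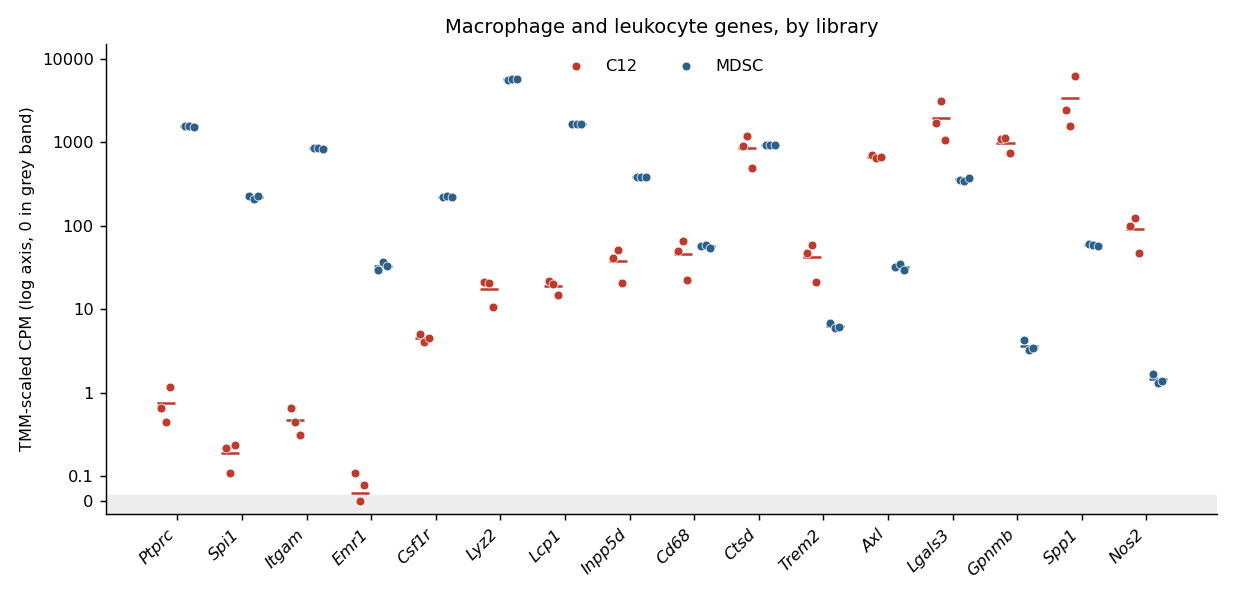
TMM-scaled CPM on a log axis for 16 macrophage and leukocyte genes, 1 point per library, with C12 in red, MDSC in blue and a bar at the mean of 3 libraries. Ptprc, Spi1, Itgam and Emr1 sit near or under 1 CPM in C12, the groups overlap for Cd68 and Ctsd, and Gpnmb, Spp1 and Axl are higher in C12.

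The genes that regulate and arm phagocytes were low in C12 as well. Of 36 tested haematopoietic transcription factors, 29 were lower, none higher, and 7 did not pass (median -6.71). Irf8, which steers monocyte and dendritic cell fate, had 0.11, 0.219 and 0.549 CPM in C12 libraries, against 269, 237 and 260 CPM in MDSC libraries. Cebpb, in contrast, had 155, 227 and 182 CPM in C12 libraries and 237, 250 and 291 CPM in MDSC libraries (log2 -0.46, SE 0.47, adjusted p = 0.409, edgeR). Runx1, Runx2, Gata2, Gata3, Maf and Batf3 were the other factors that did not pass. A small level in bulk RNA can come from few cells or from little RNA per cell, and these cannot be told apart here.

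Of the 7 tested genes of the phagocyte NADPH oxidase 6 were lower (median -6.69), and all 18 tested genes of Fc receptor and ITAM signalling were lower (median -7.19). Cybb, the catalytic subunit of the oxidase, had 0.44, 0.329 and 0.235 CPM in C12 libraries, against 969, 963 and 925 CPM in MDSC libraries. Tyrobp, the adaptor DAP12 on which Trem2 depends for signalling, had 0.11, 0.11 and 0.235 CPM in C12 libraries, against 241, 251 and 248 CPM in MDSC libraries (log2 -10.49, SE 0.80, adjusted p = 7.6e-09, edgeR). Trem2 and its adaptor thus differed in opposite directions, though the call of Trem2 was lost with the covariate, as given above. Fgr, a Src-family kinase of myeloid cells (ENSMUSG00000028874, chromosome 4, 132974095-133001910), had no counts in C12 libraries and 192, 183 and 196 CPM in MDSC libraries, at least 1968-fold lower.

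Neutrophil transcripts were abundant in the MDSC libraries and close to absent in C12. All 6 tested primary granule genes, all 12 of the secondary and tertiary granules and all 12 of mature neutrophils were lower in C12. Their medians were -11.27, -12.19 and -12.14 (-10.44, -11.71 and -11.8 with genes at 0 counts set to their bound). Summed over the list, mature neutrophil genes had 4.62 to 7.35 CPM in C12 libraries and 23692 to 25494 CPM in MDSC libraries. Olfm4, a protein of specific granules (ENSMUSG00000022026, chromosome 14, 80000302-80021930), had no counts in C12 libraries and 316, 321 and 314 CPM in MDSC libraries, at least 3272-fold lower. Mpo, the myeloperoxidase of primary granules, had 0.22, 0 and 0.157 CPM in C12 libraries, against 1036, 1000 and 1033 CPM in MDSC libraries (log2 -12.83, SE 1.21, adjusted p = 1.0e-07, edgeR). Il1b, the gene of interleukin 1 beta (ENSMUSG00000027398, chromosome 2, 129364570-129371139), had 0, 0.11 and 0 CPM in C12 libraries, against 643, 674 and 669 CPM in MDSC libraries. That is 1 count in C12, a ratio 20497-fold lower with a counting interval of 3678 to 809617.

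The promoters of Olfm4 and Mpo are shown because PU.1, whose RNA was near 0 in C12, is a known regulator of myeloid genes and both hold a motif of it. Each sequence is the 250 bases upstream of the start of the gene in RefSeq's table for GRCm38.p6, 5′ to 3′ on the strand of the gene, with the match to GAGGAAGT or its reverse complement in capitals. Olfm4 lies at chr14:80000052-80000301 on the plus strand, with the match beginning 81 bases before the start. Mpo lies at chr11:87793534-87793783 on the plus strand, with the match 224 bases before the start.
Olfm4: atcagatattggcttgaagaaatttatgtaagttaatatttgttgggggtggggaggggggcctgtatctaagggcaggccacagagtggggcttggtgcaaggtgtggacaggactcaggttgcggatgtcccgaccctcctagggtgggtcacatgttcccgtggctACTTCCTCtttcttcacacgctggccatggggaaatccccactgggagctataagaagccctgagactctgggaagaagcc
Mpo: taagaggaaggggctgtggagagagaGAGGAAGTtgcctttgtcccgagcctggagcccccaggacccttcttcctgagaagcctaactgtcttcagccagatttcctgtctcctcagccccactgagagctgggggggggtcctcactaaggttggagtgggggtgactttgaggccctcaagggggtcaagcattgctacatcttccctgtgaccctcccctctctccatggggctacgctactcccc
In windows of 250 bases before to 50 after the start, searched on both strands, GAGGAAGT was found in 3.28% of all 27025 promoters of the table. It was in 5.03% of 3297 promoters of genes lower in C12, in 2.27% of 3479 promoters of genes higher in C12 and in 3.25% of the 10924 promoters of tested genes. Beyond a log2 fold change of 2, the shares were 6.21% of lower and 2.21% of higher genes. A match is a description and not a binding site.

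Other blood lineages were present in the MDSC libraries and close to absent in C12. All 11 tested B cell genes, 15 T and NK cell genes, 13 erythroid genes and 10 mast cell, basophil and eosinophil genes were lower in C12. Ighm, the heavy chain of immunoglobulin M, had 7.8, 5.92 and 5.49 CPM in C12 libraries, against 36363, 36778 and 38141 CPM in MDSC libraries. Blk, a kinase of the B cell receptor (ENSMUSG00000014453, chromosome 14, 63372837-63417187), had no counts in C12 libraries and 183, 173 and 180 CPM in MDSC libraries, at least 1847-fold lower. Jchain, which joins secreted antibody, had 0.11, 0.329 and 0.314 CPM in C12 libraries, against 2503, 2581 and 2605 CPM in MDSC libraries. These are genes of lymphocytes and plasma cells, and in each the groups were far apart.

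Red cell genes followed the same pattern. Hbb-bs, an adult beta globin, had 0.989, 0.658 and 0.941 CPM in C12 libraries, against 7329, 7545 and 7811 CPM in MDSC libraries, and near-identical globin copies may share these reads. Of eosinophil genes, Prg2, the major basic protein, had 0, 0.11 and 0.0784 CPM in C12 libraries, against 316, 313 and 336 CPM in MDSC libraries. Epx, the eosinophil peroxidase, had no counts in C12 libraries and 46.6, 45.8 and 45.3 CPM in MDSC libraries, at least 474-fold lower. Its call was lost in DESeq2 (adjusted p = 0.0547) and in the covariate fit on intron share (adjusted p = 0.246, edgeR). With that covariate the lists of T and NK cell genes and of mast cell, basophil and eosinophil genes kept 6 and 3 of their lower calls, in place of 15 and 10, and DESeq2 called 10 of the 15 T and NK cell genes. The MDSC libraries thus held RNA of several blood lineages, and its part in the differences between C12 and MDSC was not tested.

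The other genes of largest fall belonged to lymphoid and myeloid cells. Satb1, a chromatin organiser of lymphocytes (chromosome 17), had no counts in C12 libraries and 262, 265 and 270 CPM in MDSC libraries, at least 2742-fold lower. Gimap6, a GTPase of lymphocytes, Ikzf3, a factor of B cells, and Il10ra, the interleukin 10 receptor, were all at 0 in C12, which puts them 2665-fold, 1842-fold and 1897-fold lower at least. The same held for Cyp4f18, a neutrophil enzyme of leukotriene breakdown, and Clec12a, an inhibitory lectin of myeloid cells, which were 1943-fold and 1660-fold lower at least. At a minimum of 5 CPM in the mean of one group and no more than the floor of 3 counts over the other, 516 genes were off in C12, 373 of them protein coding, and 309 were on in C12 and off in MDSC, 291 of them protein coding. Of these, 285 and 128 had no count at all in the silent group. The floor of 3 counts corresponds to 0.0968 CPM in C12 and 0.112 CPM in MDSC.

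Some white blood cell transcripts were nevertheless measurable in C12, and several of these genes were higher than in the other lines. Where this RNA came from was not tested. Comparisons of C12 with ih_CTC and with ih_DCTC share the C12 libraries, so their values are given side by side and are not independent. They called 2603 genes (16.5% of those tested, 9.6% higher and 6.9% lower in C12) against ih_CTC and 1927 genes (12.2%, 5.69% higher and 6.52% lower) against ih_DCTC. The intron share was 7.32%, 6.1% and 6.92% in ih_CTC libraries, above every C12 library. In ih_DCTC libraries it was 2.33%, 5.99% and 5.25%. No fit with that share as a covariate was made for these comparisons, and its part in them was not tested. Of 16 pan-leukocyte genes, 7 were higher and 1 lower in C12 than in ih_CTC (median 1.51), and 7 were higher and 0 lower than in ih_DCTC (median 1.71), with medians of 0.00 and -0.04 over all genes tested. For Fc receptor and ITAM genes, 9 of 18 were higher and 1 lower than in ih_CTC (2.18), and 7 higher and 0 lower than in ih_DCTC (1.13). For the NADPH oxidase, 4 of 7 were higher than in ih_CTC (2.96) and 3 of 7 than in ih_DCTC (1.57).

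Inpp5d, the lipid phosphatase SHIP1 of blood cells, had 41.3, 51.6 and 20.5 CPM in C12 libraries. It had 0.0962, 0.245 and 0.0856 CPM in ih_CTC, 0.498, 0.0752 and 0.363 CPM in ih_DCTC and 385, 379 and 386 CPM in MDSC libraries. C12 thus stood between, 7.91 log2 units above ih_CTC (SE 0.56, adjusted p = 2.0e-07), 6.98 above ih_DCTC (SE 0.52, adjusted p = 2.3e-07) and 3.34 below MDSC, where the fitted value was -3.34 (SE 0.39, all edgeR). Vav1, an exchange factor of blood cells, had 5.61, 8.77 and 4.08 CPM in C12 libraries, 0, 0 and 0.171 CPM in ih_CTC, 0, 0.0752 and 0 CPM in ih_DCTC, and 224, 229 and 238 CPM in MDSC libraries. Lcp1, the actin bundler L-plastin, had 21.9, 20.1 and 14.7 CPM in C12 libraries, and between 0.163 and 1.18 CPM in the libraries of the other lines. Each of these was called higher in C12 than in either line. Ncf4 and Rac2 of the oxidase, Was of the actin machinery, Csf2rb, the shared beta chain of the GM-CSF and interleukin 3 receptors, and Fcer1g, the Fc receptor gamma chain, were also called higher than in either line and lower than in MDSC.

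Spi1, the gene of PU.1, was not among the genes higher in C12 than in the other lines. It averaged 0.188 CPM in C12, 0.245 CPM in ih_CTC and 0.138 CPM in ih_DCTC, and did not pass the test against either line (adjusted p = 0.852 and 0.76, edgeR). Of 36 haematopoietic transcription factors, 8 were higher and 0 lower in C12 than in ih_CTC (median 0.51), and 3 were higher and 2 lower than in ih_DCTC (median 0.12). Fli1, Hhex and Tfec were higher than in both, also without any 1 C12 library. Hhex, a homeobox factor of early blood and endoderm, had 3.08, 3.73 and 5.02 CPM in C12, against 0.962, 0.571 and 0.599 CPM in ih_CTC and 0.747, 1.28 and 1.63 CPM in ih_DCTC (log2 2.47, SE 0.39, and 1.67, SE 0.37). Lyz2 had 21, 20.6 and 10.5 CPM in C12, against 4.33, 3.26 and 3.85 CPM in ih_CTC and 4.86, 2.86 and 2.99 CPM in ih_DCTC (log2 2.18, SE 0.45, and 2.29, SE 0.45). In ih_STC_BM it averaged 26.2 CPM, against which C12 was not tested. Cd14, the lipopolysaccharide co-receptor, went the other way, with 16.7, 17.5 and 18.9 CPM in C12, against 93.4, 92.3 and 101 CPM in ih_CTC and 121, 41.5 and 128 CPM in ih_DCTC (log2 -2.43, SE 0.57, and -2.45, SE 0.57). Rac2 and Csf2rb were lowest in C12 library 3, at 1.02 and 1.88 CPM, against 7.47 and 21.7 CPM in library 1. These comparisons leaned on single libraries more than the one with MDSC, and called 1550, 1301 and 4608 genes against ih_CTC without C12 library 1, 2 and 3.

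**Figure D2:**
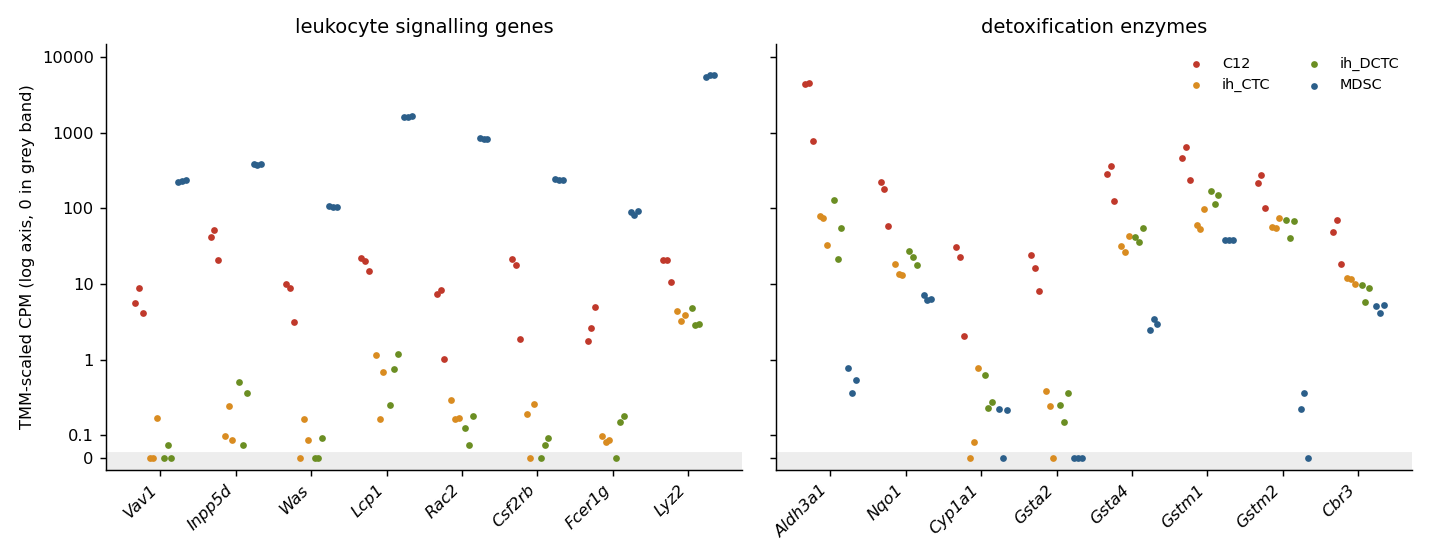
TMM-scaled CPM on a log axis, 1 point per library, for 8 leukocyte signalling genes and 8 detoxification enzymes in C12 (red), ih_CTC (orange), ih_DCTC (green) and MDSC (blue). The genes shown were picked from those called higher in C12 than in both other lines, so that order follows from the choice. In the full lists, 5 of 16 pan-leukocyte genes, 6 of 18 Fc receptor and ITAM genes and 11 of 27 detoxification enzymes were so called. Of all 15779 genes tested, 519 were. The leukocyte genes shown are below MDSC in C12, as for Inpp5d at 20.5 to 51.6 CPM in C12. For the enzymes shown C12 is the highest group, as for Aldh3a1 at 769 to 4590 CPM.

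Genes tied to immune suppression were split between the groups. Of 15 tested suppressor effector genes, 3 were higher and 10 lower in C12 (median -1.44). Nos2, the inducible nitric oxide synthase, had 98.5, 125 and 47.6 CPM in C12 libraries, against 1.66, 1.32 and 1.39 CPM in MDSC libraries (log2 5.94, SE 1.30, adjusted p = 7.7e-04, edgeR). Its call was lost with the intron share as a covariate (log2 2.17, adjusted p = 0.297, edgeR). Ptges, which makes prostaglandin E2, had 183, 241 and 111 CPM in C12 libraries, against 5.19, 6.13 and 5.43 CPM in MDSC libraries. Both were higher in every C12 library.

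Most of the classical products of suppressive myeloid cells were on the MDSC side. Arg1, the arginase by which such cells are often recognised, was close to absent in both groups, with no counts in C12 and 4 counts over the 3 MDSC libraries, and it was not tested. Arg2, the mitochondrial arginase, had 0.22, 0.329 and 1.1 CPM in C12 libraries, against 160, 152 and 168 CPM in MDSC libraries. Il10, the suppressive cytokine, had no counts in C12 libraries and 6.96, 5.05 and 7.25 CPM in MDSC libraries, at least 66.8-fold lower. Trem1, an amplifier of neutrophil and monocyte activation, had 0.22, 0 and 0 CPM in C12 libraries, against 957, 985 and 983 CPM in MDSC libraries. Arg2, Il10 and Trem1 each separated the groups. The groups did not overlap for Arg1 either, but its highest MDSC library had 0.221 CPM.

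Prostaglandin and leukotriene enzymes differed in both directions. Among 16 tested eicosanoid genes, 6 were higher and 8 lower in C12 (median -0.46), which is 37.5% and 50%, against 31.3% and 30.5% of all genes tested. Among prostaglandin enzymes, Ptgis, the prostacyclin synthase, had 65.7, 120 and 60.6 CPM in C12 libraries, against 0.11, 0.24 and 1.17 CPM in MDSC libraries (log2 7.28, SE 0.98, adjusted p = 6.6e-06, edgeR), and Ptgs1, the constitutive cyclooxygenase, was 2.23 log2 units higher (SE 0.41), a call lost with the intron share as a covariate (adjusted p = 0.0652, edgeR). Ptgs2, the inducible cyclooxygenase, had 143, 58.7 and 349 CPM in C12 libraries, against 83.4, 79.6 and 86.1 CPM in MDSC libraries, overlapped and did not pass (adjusted p = 0.107, edgeR). Among leukotriene enzymes, Alox5, the 5-lipoxygenase, had 0, 0.11 and 0.0784 CPM in C12 libraries, against 110, 103 and 105 CPM in MDSC libraries. Ltc4s, the leukotriene C4 synthase, went the other way, 4.57 log2 units higher in C12 (SE 0.74).

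Il34, Csf1 and Kitl, ligands that act on myeloid and stem cells, were higher in C12, while most receptors of this list were lower. Il34, a ligand of the CSF1 receptor (ENSMUSG00000031750, chromosome 8, 110741829-110805924), had 40.9, 53.4 and 46.6 CPM in C12 libraries and no counts in MDSC libraries, at least 419-fold higher. Csf1, the other ligand, had 753, 672 and 969 CPM in C12 libraries, against 68.4, 68.4 and 65.3 CPM in MDSC libraries (log2 3.57, SE 0.37, adjusted p = 3.6e-07, edgeR). Kitl, the ligand of Kit, had 69.9, 19.8 and 151 CPM in C12 libraries, against 0.883, 0.842 and 0.639 CPM in MDSC libraries. All 3 ligands were higher in every C12 library. Kit itself was at 0 in every C12 library, against 30, 28.4 and 27.7 CPM in MDSC libraries, at least 296-fold lower, and Csf3r, the receptor of granulocytes, had 0, 0.329 and 0.157 CPM in C12 libraries, against 681, 664 and 681 CPM in MDSC libraries. Of the 15 tested genes of this list, 3 were higher and 10 lower in C12.

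Chemokine receptors were mostly lower in C12, while their ligands were called near the rates of all genes tested. Of the ligands 40% were higher and 25% lower, and of the receptors 6.25% and 87.5%, against 31.3% and 30.5% of all genes tested. Among 20 tested ligands 8 were higher and 5 lower in C12 (median 0.55; DESeq2 called 3 lower), whereas among 16 receptors 1 was higher and 14 were lower (median -8.9, or -6.99 with genes at 0 counts set to their bound). Ccl7, which draws monocytes, had 772, 426 and 843 CPM in C12 libraries, against 1.77, 1.44 and 2.02 CPM in MDSC libraries (log2 8.59, SE 0.69, adjusted p = 1.5e-08, edgeR). Cxcl5, a neutrophil attractant, had 415, 242 and 656 CPM in C12 libraries, against 0.552, 1.32 and 1.17 CPM in MDSC libraries. Ccl8, another monocyte attractant, had 25.5, 33.6 and 25.2 CPM in C12 libraries and no counts in MDSC libraries, at least 247-fold higher. Ccl6, a chemokine of myeloid cells, was lower, with 0.11, 0.11 and 0.157 CPM in C12 libraries, against 200, 206 and 206 CPM in MDSC libraries.

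Among receptors, Cxcr4, which holds cells in bone marrow, had 0.22, 0.439 and 0.157 CPM in C12 libraries, against 1483, 1471 and 1486 CPM in MDSC libraries (log2 -12.40, SE 0.66, adjusted p = 1.7e-10, edgeR). The 1 receptor that was higher was Ackr3, a scavenger of the same ligand, with 87.7, 84.2 and 91.2 CPM in C12 libraries, against 31.1, 33.2 and 32.9 CPM in MDSC libraries (log2 1.44, SE 0.36). These receptors of a common ligand thus differed in opposite directions. The call of Ackr3 was lost with the intron share as a covariate (log2 0.35, adjusted p = 0.54, edgeR) and when a log2 fold change above 1 was demanded (adjusted p = 0.0817, edgeR's glmTreat).

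Sensors of microbes and the interferon response were lower in C12. Of 30 tested pattern recognition genes, 25 were lower and none higher (median -3.2), and of 22 interferon response genes, 14 were lower and 1 higher (median -2.22). Tlr9, a receptor for DNA, had no counts in C12 libraries and 59, 54.1 and 49.3 CPM in MDSC libraries, at least 558-fold lower. Irf7, which drives type I interferon, had 1.87, 3.29 and 1.96 CPM in C12 libraries, against 83.3, 80.3 and 85.1 CPM in MDSC libraries. Tlr3, Tlr5, Ly96, Ticam1 and Irak4 were the sensors that did not pass. Tlr3, for example, had 2.64, 1.43 and 4 CPM in C12 libraries and 3.2, 3.01 and 1.92 CPM in MDSC libraries.

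Ligands that speak to T cells were lower more often than higher. Of the list 31.2% were higher and 56.2% lower in C12, against 31.3% and 30.5% of all genes tested, so the higher share was that of all genes. Among 16 checkpoint and costimulatory ligands 5 were higher and 9 lower in C12 (median -2.41), with 3 higher when the intron share was a covariate. Cd274, the gene of PD-L1, had 1.1, 0.877 and 4.31 CPM in C12 libraries, against 263, 252 and 256 CPM in MDSC libraries (log2 -6.89, SE 0.58, adjusted p = 2.7e-08, edgeR). Cd276, the B7-H3 ligand, had 138, 144 and 82 CPM in C12 libraries, against 0.442, 1.08 and 0.426 CPM in MDSC libraries (log2 7.54, SE 0.46, adjusted p = 6.9e-10, edgeR). Nectin2, a ligand of TIGIT and CD226, had 76.5, 102 and 89.6 CPM in C12 libraries, against 1.33, 1.44 and 1.6 CPM in MDSC libraries. The groups did not overlap for any of these.

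Genes of the collagen matrix were higher in C12. Of 25 tested collagen chains 19 were higher and 0 lower in C12 (median 7.22), and of 27 matrix proteins and collagen enzymes 22 were higher and 2 lower (median 6.11), against 0.03 over all genes tested. Summed, the collagen chains had 8113 to 13345 CPM in C12 libraries and 43.3 to 43.5 CPM in MDSC libraries. Col1a2, a chain of type I collagen, had 5319, 6111 and 3390 CPM in C12 libraries, against 5.41, 4.21 and 4.9 CPM in MDSC libraries (log2 9.99, SE 0.56, adjusted p = 2.8e-10, edgeR). Col6a3 of the microfibrils had 487, 684 and 199 CPM in C12 libraries, against 0.552, 0.12 and 0.107 CPM in MDSC libraries. Serpinh1, the collagen chaperone HSP47, had 1171, 1472 and 713 CPM in C12 libraries, against 0.994, 1.44 and 1.28 CPM in MDSC libraries. All 3 were raised in every C12 library, with library 3 the lowest in each.

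Within the matrix list, Fbln2, an elastic fibre protein, and Sparc, a collagen-binding protein, were 10.24 (SE 0.58) and 9.74 (SE 0.47) log2 units higher. Thbs1, an activator of TGF-beta, went the other way, with 65.8, 39.6 and 194 CPM in C12 libraries, against 721, 725 and 690 CPM in MDSC libraries (log2 -2.83, SE 0.80, adjusted p = 0.00528, edgeR). Its call was lost with the intron share as a covariate (adjusted p = 0.333, edgeR). Some fibroblast genes were below the level of the other lines or near 0. Dcn, the proteoglycan decorin, was higher in C12 than in MDSC (adjusted p = 0.00224, edgeR) and had 5.39, 2.74 and 33 CPM in C12, against 693, 673 and 673 CPM in ih_CTC and 656, 808 and 2210 CPM in ih_DCTC (log2 -5.62, SE 0.96, and -6.47, SE 0.99). Lum, the proteoglycan lumican, had no counts in C12 and a single one in MDSC, and Col11a1 had 1 count in each group.

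Among 24 matrix proteases and inhibitors 11 were higher and 7 lower in C12, or 45.8% and 29.2%, near the 31.3% and 30.5% of all genes tested. Of 8 leukocyte integrins 0 were higher and 7 lower, and of 14 matrix-binding integrins 9 were higher and 3 lower, with 1 lower when the intron share was a covariate. Mmp2, the gelatinase of stromal cells, had 208, 240 and 188 CPM in C12 libraries, against 0.442, 1.32 and 0.852 CPM in MDSC libraries, while Mmp9, the gelatinase of neutrophils, had 19.8, 32.9 and 32.8 CPM in C12 libraries, against 732, 680 and 719 CPM in MDSC libraries. Itga3, a laminin receptor, had 424, 497 and 345 CPM in C12 libraries, against 2.1, 2.4 and 2.66 CPM in MDSC libraries (log2 7.46, SE 0.38, adjusted p = 1.2e-10, edgeR). Itgad, a partner of the leukocyte integrin beta 2, had no counts in C12 libraries and 33.5, 32.7 and 34.8 CPM in MDSC libraries, at least 348-fold lower. Each of these 4 genes separated the groups.

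The growth regulators YAP and TEAD were close to silent in MDSC and expressed in C12. Of 15 tested genes of the pathway and its known targets, 13 were higher and 2 lower in C12 (median 7.19). Yap1 had 117, 78.7 and 120 CPM in C12 libraries, against 0.773, 0.361 and 0.32 CPM in MDSC libraries (log2 7.72, SE 0.41, adjusted p = 1.9e-10, edgeR). Tead4, one of the DNA-binding partners, had 27.8, 30.9 and 22.7 CPM in C12 libraries and no counts in MDSC libraries, at least 237-fold higher. Ccn1, a target of the pathway, had 45.5, 37.6 and 349 CPM in C12 libraries, against 0.663, 0.842 and 0.639 CPM in MDSC libraries, so that C12 library 3 stood far above the others. The kinase Lats2, which restrains YAP, was lower, with 15.3, 8.77 and 30.8 CPM in C12 libraries, against 132, 131 and 128 CPM in MDSC libraries (log2 -2.83, SE 0.53), a call lost with the intron share as a covariate (adjusted p = 0.131, edgeR).

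Contractile genes were mixed: of 18 tested, 10 were higher and 1 lower in C12 (median 1.2). Cald1, the actin regulator caldesmon, had 479, 270 and 511 CPM in C12 libraries, against 1.66, 1.44 and 1.49 CPM in MDSC libraries (log2 8.09, SE 0.44, adjusted p = 2.2e-10, edgeR). Tpm2, a tropomyosin, had 162, 231 and 92.7 CPM in C12 libraries, against 0.331, 0.361 and 0.746 CPM in MDSC libraries. Markers of smooth muscle had no common direction. Des, the gene of desmin, had 15.3, 26 and 12.9 CPM in C12 libraries, against 0, 0.12 and 0 CPM in MDSC libraries. Lmod1 and Acta2 were also called higher (log2 4.91 and 1.93, adjusted p = 0.025 and 0.0444, edgeR). Both of those calls were lost without MDSC library 1, 2 or 3. The call of Acta2 was also lost without C12 library 1, 2 or 3. It was lost too with the intron share as a covariate (adjusted p = 0.329, edgeR). Tagln and Cnn1 were low in C12. Tagln had 0.44, 0.11 and 0.784 CPM in C12 libraries, against 3.2, 5.77 and 4.58 CPM in MDSC libraries (log2 -3.23, SE 0.49), and Cnn1 had 0.22, 0.329 and 0.235 CPM in C12 libraries, with 1 count in MDSC. The higher calls fell to 6 when a log2 fold change above 1 was demanded or the MDSC libraries were summed.

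The promoters of Yap1 and Cald1 are shown as members of these lists whose windows hold the TEAD motif. Capitals mark GGAATG, found 141 and 153 bases before the start. The 250 upstream bases of Yap1 lie at chr9:8004597-8004846 on the minus strand, and those of Cald1 at chr6:34598254-34598503 on the plus strand (RefSeq, GRCm38.p6).
Yap1: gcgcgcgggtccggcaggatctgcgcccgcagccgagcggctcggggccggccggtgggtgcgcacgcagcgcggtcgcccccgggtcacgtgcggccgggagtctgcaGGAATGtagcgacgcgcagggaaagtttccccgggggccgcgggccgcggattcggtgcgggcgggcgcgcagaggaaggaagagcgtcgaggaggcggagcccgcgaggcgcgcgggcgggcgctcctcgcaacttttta
Cald1: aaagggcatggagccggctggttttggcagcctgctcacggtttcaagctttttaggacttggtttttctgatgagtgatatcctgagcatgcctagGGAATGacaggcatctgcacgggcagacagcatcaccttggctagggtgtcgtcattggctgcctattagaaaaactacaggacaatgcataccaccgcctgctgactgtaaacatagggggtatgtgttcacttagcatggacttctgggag
GGAATG or its reverse complement was found in 14.6% of all 27025 promoters of the table, in 11.9% of those of tested genes, and in 13.5% of promoters of genes higher and 10.9% of those of genes lower in C12. The motif was in 8 of 10 matched promoters of the YAP and TEAD list and in 7 of 17 of the contractile list. The AP-1 motif TGACTCA was in 4.48% of promoters of genes higher and 3.82% of those of genes lower in C12, and in 3.83% of those of tested genes. These shares are descriptions and name no binding site.

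Transcription factors of mesenchyme were mostly higher in C12. Of 22 tested, 18 were higher and 1 lower in C12 (median 8.03, or 7.94 with genes at 0 counts set to their bound). Snai2, a factor of epithelial-mesenchymal transition, had 23.7, 14.4 and 67.6 CPM in C12 libraries and no counts in MDSC libraries, at least 348-fold higher. Osr1, a factor of embryonic mesenchyme, had 71.2, 68.1 and 56.2 CPM in C12 libraries, against 0, 0.12 and 0 CPM in MDSC libraries, a ratio of 1716 with a counting interval of 308 to 67797. Twist1 had 69.6, 71.4 and 67.2 CPM in C12 libraries, against 0.221, 0.361 and 0.213 CPM in MDSC libraries. Tcf4 was the member that was lower, with 20.9, 10.5 and 44.1 CPM in C12 libraries, against 106, 110 and 113 CPM in MDSC libraries, a call lost with the intron share as a covariate (adjusted p = 0.602, edgeR) and without C12 libraries 1 and 2 (adjusted p = 0.105, edgeR). Vim, the intermediate filament of mesenchymal cells and leukocytes alike, had 5573, 6582 and 4321 CPM in C12 libraries, against 1470, 1461 and 1510 CPM in MDSC libraries (log2 1.89, SE 0.40). Its call, too, was lost with that covariate (log2 1.12, adjusted p = 0.11, edgeR).

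Hox genes, which record position along the body axis, were nearly all silent in MDSC. Of 34 tested, 29 were higher and 0 lower in C12 (median 5.83, or 4.74 with genes at 0 counts set to their bound). A fit of C12 and MDSC alone called 21 higher, and 15 of the 34 had no count in MDSC. The higher calls took in Hoxc10 and Hoxc11, which averaged 0.167 and 0.162 CPM in C12. Both of those calls were lost without MDSC library 1, 2 or 3. Both were also lost with the intron share as a covariate (adjusted p = 0.209 and 0.361, edgeR). Hoxb9 had 51.9, 58.5 and 71.3 CPM in C12 libraries, against 0, 0 and 0.107 CPM in MDSC libraries. Hoxa11, a gene of the limb and reproductive tract, had 19, 19.3 and 12.1 CPM in C12 libraries and no counts in MDSC libraries, at least 145-fold higher. Hoxb13, the last gene of its cluster, had 14.7, 20.7 and 10.6 CPM in C12 libraries and no counts in MDSC libraries, at least 132-fold higher. The genes expressed in C12 came from all 4 clusters, and those at the far end of the Hoxc and Hoxd clusters were at or near 0. Hoxd10 had no counts in either group.

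Against the other lines the Hox genes of C12 did not move as a body. In the comparison with ih_CTC, 3 were higher and 6 lower, and with ih_DCTC, 2 were higher and 10 lower, with a median of -0.20 in each. Hoxc8 had 0.55, 0.329 and 0.47 CPM in C12, against 9.52, 11.8 and 9.5 CPM in ih_CTC and 10.5, 9.33 and 8.71 CPM in ih_DCTC (log2 -4.48, SE 0.38, and -4.36, SE 0.38). Hoxc10 had 0, 0.11 and 0.392 CPM in C12, against 6.35, 6.04 and 9.08 CPM in ih_CTC and 34, 10.2 and 21.2 CPM in ih_DCTC. The Hoxc genes lower in C12 than in ih_CTC were Hoxc5, Hoxc6, Hoxc8, Hoxc9, Hoxc10 and Hoxc11, and each was also lower than in ih_DCTC. The number of Hox genes lower than both lines was 3 without C12 library 1 and 4 without library 2. Over all genes tested those numbers were 238 and 205. Hoxc8, Hoxc9 and Hoxc10 stayed lower than both lines without any 1 C12 library, whereas Hoxc5 and Hoxc6 did so in 1 of the 3 fits.

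**Figure D3:**
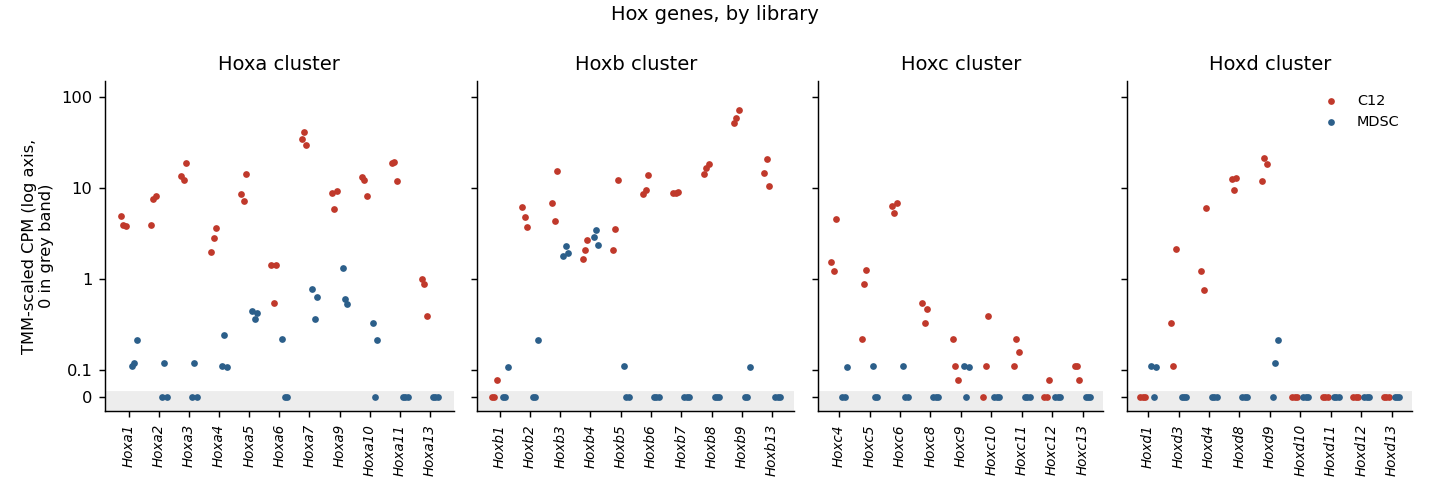
TMM-scaled CPM on a log axis for the 39 Hox genes, in 4 panels by cluster and ordered by number, with 1 point per library, C12 in red and MDSC in blue. Most Hoxa and Hoxb genes lie between 1 and 100 CPM in C12 with MDSC at or near 0, as for Hoxb9, while the groups overlap for Hoxb4.

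Receptor tyrosine kinases of stromal cells were present in C12. Of 30 tested, 18 were higher and 8 lower in C12 (median 4.01). That is 60% and 26.7%, against 31.3% and 30.5% of all genes tested, so the lower share was near that of all genes. Pdgfra, a receptor of platelet-derived growth factor, had 122, 105 and 195 CPM in C12 libraries, against 0.773, 0.481 and 0.107 CPM in MDSC libraries (log2 8.25, SE 0.60, adjusted p = 4.3e-09, edgeR). Ddr2, a collagen receptor, had 111, 58 and 170 CPM in C12 libraries, against 0.11, 0.24 and 0.107 CPM in MDSC libraries. Fgfr1 had 510, 545 and 461 CPM in C12 libraries, against 5.74, 5.65 and 5.01 CPM in MDSC libraries. The lower kinases were those of blood and vessel cells (Kit, Flt3, Csf1r, Tie1, Mertk) together with Ret, Mst1r and Erbb3. The lower calls fell to 4 with the intron share as a covariate, which ended those of Tie1, Mertk, Mst1r and Erbb3, and to 5 without C12 libraries 1 and 2. Those of Mst1r and Erbb3 were also lost without C12 library 1 or 2, and without MDSC library 3 (Mst1r) or MDSC library 1 or 2 (Erbb3).

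Among 32 secreted growth factors and cytokines 17 were higher and 9 lower in C12 (median 1.62, or 1.3 with genes at 0 counts set to their bound). These make 53.1% and 28.1% of the list, against 31.3% and 30.5% of all genes tested, so the lower share was near that of all genes. The lower calls fell to 5 with the intron share as a covariate and without C12 libraries 1 and 2. Fgf7, a growth factor for epithelium, had 134, 55.9 and 339 CPM in C12 libraries, against 0.552, 0.24 and 0.32 CPM in MDSC libraries, and the groups did not overlap. The inflammatory cytokines Il6 and Il1a were also lower in C12 than in the other lines. Il6 had 0.769, 0.11 and 1.49 CPM in C12, against 17.8, 17.1 and 29.3 CPM in ih_CTC and 13.7, 36.6 and 288 CPM in ih_DCTC (log2 -4.67, adjusted p = 0.00537, and -7.07, adjusted p = 4.4e-04, edgeR), and 13.9, 15.1 and 17.6 CPM in MDSC libraries. Il1a had 0.22, 0.329 and 0.705 CPM in C12, against 104, 106 and 40.1 CPM in ih_CTC and 11.7, 22.2 and 311 CPM in ih_DCTC. Against MDSC, the lower calls of Il6 and Il1a were lost with the intron share as a covariate (adjusted p = 0.836 and 0.694, edgeR) and without C12 libraries 1 and 2 (adjusted p = 0.077 and 0.0944, edgeR).

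**Figure D4:**
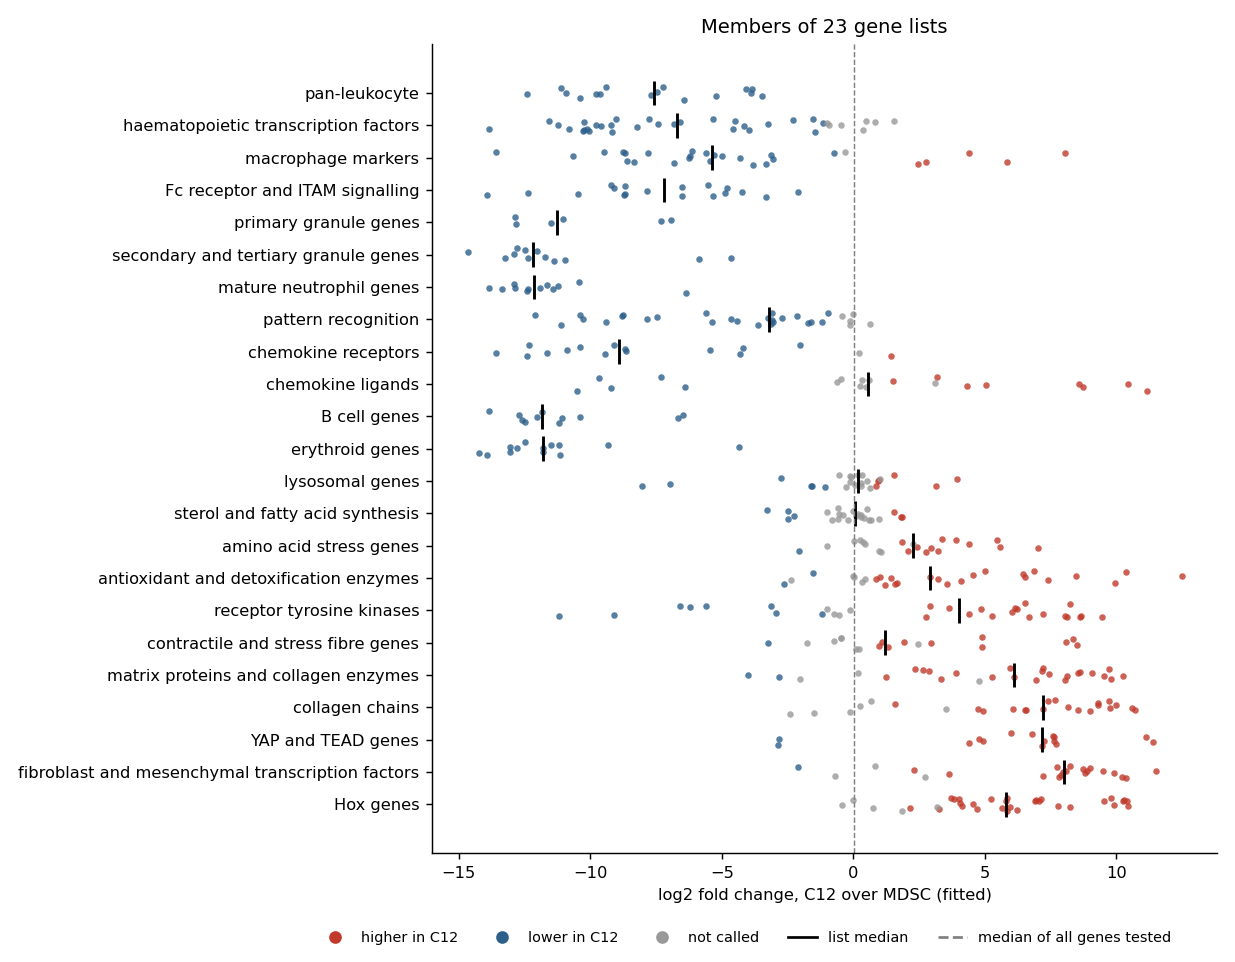
Fitted log2 fold change of C12 over MDSC for each tested member of 23 gene lists, 1 point per gene, red where higher, blue where lower and grey where not called, with a black bar at the median of each list and a dashed line at the median of all genes tested. Blood cell lists lie at the left (B cell median -11.84) and matrix, YAP and TEAD, mesenchymal and Hox lists at the right (mesenchymal factor median 8.03), while lysosomal and sterol genes centre near 0; values of genes at 0 counts in a group depend on the prior count and are not bounds.

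Detoxification enzymes were mostly higher in C12 than in MDSC, and many were higher than in ih_CTC and ih_DCTC. Of 27 tested, 20 were higher and 2 lower in C12 than in MDSC (median 2.92). Against ih_CTC 14 were higher and 0 lower (median 1.69), and against ih_DCTC 12 were higher and 1 lower (median 1.23), in comparisons that share the C12 libraries. Aldh3a1, an aldehyde dehydrogenase (ENSMUSG00000019102, chromosome 11, 61207537-61218421), had 4489, 4590 and 769 CPM in C12 libraries, against 0.773, 0.361 and 0.533 CPM in MDSC libraries (log2 12.49, SE 1.29, adjusted p = 3.0e-07, edgeR). It had 79.5, 74.6 and 33.1 CPM in ih_CTC and 128, 21.7 and 54.5 CPM in ih_DCTC (log2 5.72, SE 0.95, adjusted p = 7.0e-04, and 5.60, SE 0.94, adjusted p = 6.8e-04, for C12 over each, edgeR). C12 library 3 was the lowest of its group and still above every library of the other lines.

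Enzymes known as targets of NRF2 or of the aryl hydrocarbon receptor were among those higher. Nqo1, a quinone reductase, had 224, 183 and 57.9 CPM in C12 libraries, against 7.18, 6.13 and 6.39 CPM in MDSC libraries (log2 4.56, SE 0.59), and was 3.36 (SE 0.55) and 2.78 (SE 0.54) log2 units above ih_CTC and ih_DCTC. Cyp1a1, the classical target of the aryl hydrocarbon receptor, had 31, 23 and 2.04 CPM in C12 libraries, against 0.221, 0 and 0.213 CPM in MDSC libraries, a call lost with the intron share as a covariate (adjusted p = 0.659, edgeR). Gsta4, a glutathione transferase, had 288, 369 and 127 CPM in C12 libraries, against 2.43, 3.49 and 2.98 CPM in MDSC libraries. In all 3 the library with the least was C12 library 3. Nfe2l2, the gene of NRF2, had 315, 219 and 417 CPM in C12 libraries and 234, 228 and 239 CPM in MDSC libraries, and did not pass the test (adjusted p = 0.161, edgeR). Reads of Gsta1, Gsta2 and the Gstm genes can be split between near-identical copies, so their single values are uncertain. Slc7a11, the cystine importer, was lower, with 19.7, 11.4 and 35.4 CPM in C12 libraries, against 137, 142 and 133 CPM in MDSC libraries. That call was lost with the intron share as a covariate (adjusted p = 0.404, edgeR) and without C12 library 2 (adjusted p = 0.0551, edgeR).

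Outside the lists, the genes with the largest rise included several of epithelium and nervous tissue. Dclk1, a microtubule-linked kinase (ENSMUSG00000027797, chromosome 3, 55242526-55539064), had 92, 39.9 and 150 CPM in C12 libraries and no counts in MDSC libraries, at least 895-fold higher. Aqp5, a water channel of glands and lung (ENSMUSG00000044217, chromosome 15, 99590849-99594829), had 551, 615 and 262 CPM in C12 libraries, against 0.11, 0 and 0.107 CPM in MDSC libraries, a ratio of 6032 with a counting interval of 1670 to 49815. Steap1, a metalloreductase, had 159, 154 and 162 CPM in C12 libraries, against 0, 0 and 0.107 CPM in MDSC libraries, a ratio of 4259 (764 to 168247). Fez1, an axon transport adaptor, Gata4, a factor of heart and endoderm, Sparcl1, a relative of Sparc, S100a16, a calcium-binding protein, and Ngef, a neuronal exchange factor, were all at 0 in MDSC, which puts them 443-fold, 411-fold, 402-fold, 380-fold and 372-fold higher at least. All of these were found in each of the 3 C12 libraries, which the rule that named them required.

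Oncofetal genes, active in the embryo and in some tumours, were raised in part. Of 17 tested, 10 were higher and 1 lower in C12 (median 4.25, or 3.25 with genes at 0 counts set to their bound). Igf2bp1, an RNA-binding protein (ENSMUSG00000013415, chromosome 11, 95957163-96005940), had 53.5, 51.3 and 53.9 CPM in C12 libraries and no counts in MDSC libraries, at least 473-fold higher. Hmga2, a chromatin protein, had 211, 167 and 397 CPM in C12 libraries, against 0.552, 1.56 and 0.746 CPM in MDSC libraries. Lin28a, a regulator of let-7, was the member that was lower, with no counts in C12 libraries and 7.51, 8.9 and 7.56 CPM in MDSC libraries, at least 82.2-fold lower, a call lost with the intron share as a covariate (adjusted p = 0.208, edgeR). Igf2, Dlk1, Meg3, Mest, Plagl1 and Cdkn1c did not pass.

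Of 20 tested genes of G1 control 8 were higher and 8 lower in C12, or 40% each, not far from the 31.3% and 30.5% of all genes tested. The covariate fit on intron share called 4 higher and 3 lower. Ccnd1, the cyclin D1 gene, had 940, 919 and 383 CPM in C12 libraries, against 3.42, 3.25 and 3.94 CPM in MDSC libraries (log2 7.72, SE 0.56, adjusted p = 4.3e-09, edgeR). Cdk4, its kinase, was 2.20 log2 units higher (SE 0.38), a call lost with that covariate (adjusted p = 0.194, edgeR). Cdkn2a, which encodes the inhibitors p16 and p19Arf (ENSMUSG00000044303, chromosome 4, 89274471-89294653), had no counts in C12 libraries and 0.331, 0.361 and 0 CPM in MDSC libraries. The groups overlapped at 0. It was at least 2.32-fold lower, at levels close to the floor, and its call (adjusted p = 0.0335, edgeR) was lost without C12 library 1, 2 or 3 or MDSC library 1 or 2 (adjusted p of 0.0622 to 0.0873, edgeR) and with the covariate (log2 -1.70, adjusted p = 0.601, edgeR). Cdkn2b, its neighbour, was at 0 in every C12 library, against 0.994, 0.481 and 0.32 CPM in MDSC libraries, at least 6.17-fold lower, a call also lost with the covariate (adjusted p = 0.264, edgeR). Mtap, which lies beside this locus and encodes a methionine salvage enzyme, had 582, 405 and 555 CPM in C12 libraries, against 10.5, 10.9 and 10.5 CPM in MDSC libraries (log2 5.59, SE 0.37, adjusted p = 1.3e-09, edgeR). Counts of 0 for these inhibitors limit their RNA and say nothing of the DNA.

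The p53 pathway showed RNA of the gene and of several targets. Trp53 (ENSMUSG00000059552, chromosome 11, 69580359-69591873) had 231, 352 and 154 CPM in C12 libraries, against 94.7, 89.3 and 93 CPM in MDSC libraries (log2 1.41, SE 0.46, adjusted p = 0.0133, edgeR). Its call was lost without C12 library 2 (log2 1.09, adjusted p = 0.0581, edgeR), and the covariate fit on intron share gave -0.68 (adjusted p = 0.249, edgeR). Of 17 tested targets 8 were higher and 3 lower in C12 (median 1.16). The shares were 47.1% and 17.6%, against 31.3% and 30.5% of all genes tested. RLE scaling, limma-voom and the fit without C12 library 1 each called 6 targets higher. Phlda3, an inhibitor of Akt, had 365, 606 and 199 CPM in C12 libraries, against 1.99, 1.8 and 1.17 CPM in MDSC libraries (log2 7.87, SE 0.61, adjusted p = 9.4e-09, edgeR), and Cdkn1a, the inhibitor p21, had 460, 560 and 240 CPM in C12 libraries, against 122, 111 and 109 CPM in MDSC libraries. The call of Cdkn1a was lost with the covariate (adjusted p = 0.201, edgeR) and without C12 libraries 1 and 2 (adjusted p = 0.0722, edgeR). Pmaip1, the death factor NOXA, and Btg2, an antiproliferative gene, were 5.26 and 4.42 log2 units lower in C12, with fitted values of -5.26 (SE 0.47) and -4.42 (SE 0.64).

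Enzymes of amino acid synthesis were among the genes higher in C12. Of 21 tested amino acid stress genes 12 were higher and 1 lower in C12 (median 2.26), against 6 higher with the intron share as a covariate. Phgdh, the first enzyme of serine synthesis, had 572, 1078 and 370 CPM in C12 libraries, against 75, 67.9 and 71.9 CPM in MDSC libraries (log2 3.23, SE 0.65, adjusted p = 3.6e-04, edgeR), a call lost with that covariate (adjusted p = 0.453, edgeR). Aldh1l2, a mitochondrial folate enzyme, had 67, 69.1 and 116 CPM in C12 libraries, against 0.663, 0.721 and 0.533 CPM in MDSC libraries. Atf4, the factor that drives these genes, had 325, 244 and 458 CPM in C12 libraries, against 663, 686 and 696 CPM in MDSC libraries, and did not pass the test (log2 -0.99, SE 0.43, adjusted p = 0.052, edgeR). The groups were separated for all 3.

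Lysosomal and sterol genes had no common direction. Of 25 tested lysosomal genes 6 were higher and 6 lower in C12 (median 0.16), and of 24 genes of sterol and fatty acid synthesis 3 were higher and 4 lower (median 0.04), close to 0.03 over all genes tested. With the MDSC libraries summed, 2 lysosomal and 0 sterol genes were higher. Ctsl, the cathepsin L, had 2587, 2983 and 2006 CPM in C12 libraries, against 156, 164 and 165 CPM in MDSC libraries (log2 3.96, SE 0.41, adjusted p = 2.9e-07, edgeR). Ctsc, the cathepsin that activates granule proteases, had 0.11, 0.548 and 2.43 CPM in C12 libraries, against 294, 292 and 294 CPM in MDSC libraries. Ctsd had 893, 1172 and 486 CPM in C12 libraries, against 924, 918 and 936 CPM in MDSC libraries, and the groups overlapped (adjusted p = 0.796, edgeR). Against the other lines, sterol genes leaned low in C12, with 0 higher and 4 lower than in ih_CTC (median -0.86) and 0 higher and 6 lower than in ih_DCTC (median -1.07).

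A minority of genes could be bounded as close in both groups. For 1476 genes, 9.35% of those tested, the 95% interval of the log2 fold change lay within 1 of 0. Of the 6037 genes that were not called (38.3%), 4584 had a wider interval, so a missed call there does not show that the groups were alike. Eef1a1, a translation factor, had 13252, 8507 and 13486 CPM in C12 libraries, against 9402, 9497 and 9580 CPM in MDSC libraries. Actb, the cytoplasmic actin, had 2447, 2466 and 1500 CPM in C12 libraries, against 2172, 2159 and 2181 CPM in MDSC libraries. In both genes the libraries overlapped.

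C12 libraries differed among themselves far more than MDSC libraries did. Among 7072 genes with at least 20 CPM on average in C12, the median ratio of the highest to the lowest library was 1.83, against 1.08 over 7251 such genes in MDSC. The ratio was 8 or more in 146 genes (2.06%) in C12 and in 1 gene in MDSC. C12 library 3 was highest in 135 of the 146 and C12 library 2 lowest in 133. Without C12 library 2 the number was 18, without library 3 it was 2, and without library 1 it was 164.

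Immediate early genes were among them. Egr1 had 0.659, 1.86 and 77.1 CPM in C12 libraries 1, 2 and 3, against 988, 945 and 959 CPM in MDSC libraries. Fos had 0.989, 0.877 and 59.3 CPM in C12 libraries, against 2027, 1980 and 2081 CPM in MDSC libraries. Both were lower in all C12 libraries than in MDSC, by a margin that depends on the library. Ogn, a matrix proteoglycan, had 18.2, 3.29 and 74.2 CPM in C12 libraries. All 3 genes were highest in library 3, while the lowest was library 1 for Egr1 and library 2 for Fos and Ogn. The intron share was highest at 5.23% in library 3 and lowest at 1.02% in library 2, and its part in these ratios was not tested.

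**Figure D5:**
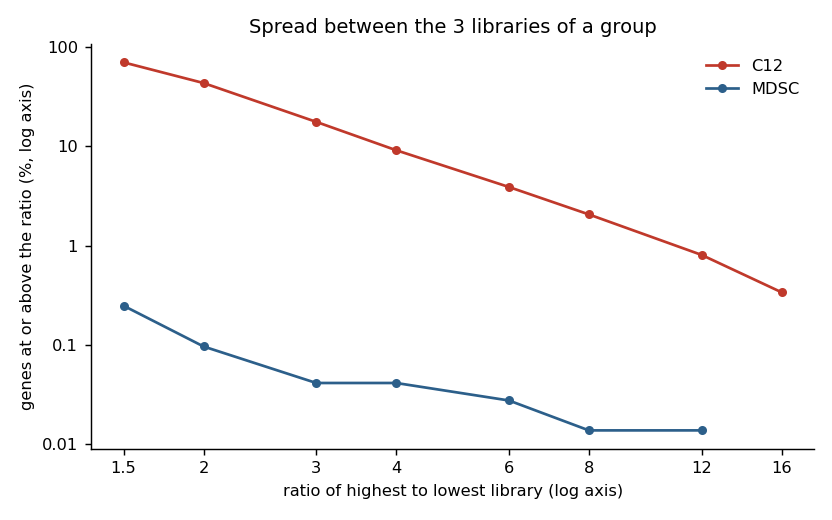
Percentage of genes (log axis) whose ratio of the highest to the lowest of 3 libraries (log axis) reaches the value on the horizontal axis, among genes with at least 20 CPM on average in the group, for C12 (red) and MDSC (blue). At a ratio of 8 the curves stand at 2.06% for C12 and at 1 gene of 7251 for MDSC.

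Xist was present in both groups and Y-linked RNA was at or near 0. Xist, the RNA of the inactive X chromosome (ENSMUSG00000086503, chromosome X, 103460375-103483217), had 148, 34.5 and 692 CPM in C12 libraries, against 615, 621 and 580 CPM in MDSC libraries. The groups overlapped and the gene did not pass the test (log2 -1.05, SE 0.81, adjusted p = 0.268, edgeR). Without C12 library 3 the value was -2.73 (adjusted p = 0.00767, edgeR). The covariate fit on intron share gave 3.70 (adjusted p = 5.0e-04, edgeR). Of the Y-linked genes, Ddx3y, Kdm5d and Uty had no counts in either group and Eif2s3y had a single count in C12 library 3.

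Against MDSC, medians by chromosome stood farthest from that of all genes on chromosomes 14 and 15. Relative to all genes, the median log2 fold change of the 613 tested genes of chromosome 15 was 0.84, and 0.58, 0.78 and 0.52 in C12 libraries 1, 2 and 3. For the 560 tested genes of chromosome 14 it was -0.56, and -0.46, -0.44 and -0.40 in the 3 libraries. The other chromosomes lay between -0.39 and 0.34 against MDSC. Against the other lines, chromosome 18 had the lowest median relative to ih_CTC, at -1.05, and stood at -0.42 relative to ih_DCTC. Chromosome 14 stood at -0.46 and -0.43, chromosome 3 at -0.38 and -0.37 and chromosome 15 at 0.43 and 0.14. These are medians over genes and no test was made of them.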

How the data were processed

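TRIzol was used for the RNA and a TruSeq kit for the libraries, per the labels' protocols. The authors deposited RSEM expected counts (estimated counts per gene), and STAR, RSEM 1.2.26 and DESeq2 are named in the submitters' processing notes. No source used here names the genome build, so positions are printed as the deposited annotation has them. The deposited alignment statistics gave the intron share.

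Of the expected count values 8.37% were not whole, and all were rounded. Genes were kept by filterByExpr (minimum count 10, minimum total 15), and all 20 libraries in 7 groups entered 1 edgeR quasi-likelihood fit with TMM scaling, 13 residual degrees of freedom and Benjamini-Hochberg adjustment over 15779 genes. Levels are TMM-scaled CPM computed from the counts. A group at 0 counts is set to a group-wide floor of 3 counts for ratios, and 1 to 3 counts carry a 95% interval. Counting error alone is covered by these. Samples were grouped by their labels.

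The members and gene lists were chosen with earlier results of these data known. Named genes were the 12 largest rises and 12 largest falls (protein coding, at least 20 CPM in the higher group, groups not overlapping), up to 3 called members of each list in its more frequent direction and up to 2 in the other (at least 5 CPM), and a fixed panel. Of the genes that this rule named, 4 are not reported here. Other genes named were chosen after their values were seen. The fit was tested on simulated data. Alternatives were other scalings, no filter, DESeq2, limma-voom, a smaller fit, a minimum fold change, the intron share as a covariate, summed MDSC libraries and libraries left out. The versions were R 4.3.3, edgeR 4.0.16, limma 3.58.1, DESeq2 1.42.0, Python 3.11.15, pandas 2.3.3, NumPy 2.4.6, SciPy 1.17.1 and Matplotlib 3.10.9.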

Additional observations from a re-analysis of the deposited data

Results flagged for a closer look

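C12 differed from ih_CTC in 2603 genes and from ih_DCTC in 1927 genes (edgeR, adjusted p under 0.05). The lines ih_BCTC and ih_STC_BM were not tested against C12. Both comparisons use the same C12 libraries, and neither was fitted with the intron share as a covariate. With 3 libraries a group, no test for single outlying libraries was made.

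Among the genes named by rule, those different from both lines are given as log2 fold changes of C12 over ih_CTC and over ih_DCTC. Higher in C12 in every fit without 1 C12 library were Aldh3a1 (5.72 and 5.60), Gsta2 (6.20 and 5.93), Aqp5 (5.93 and 2.82), Rac2 (4.68 and 5.35), Ccl11 (4.37 and 5.25), Des (4.61 and 4.29), Foxd1 (4.66 and 2.75) and Col4a6 (2.45 and 2.94). Satb1 was lower in every such fit (-7.10 and -7.39).

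The call against both lines was kept in 2 of 3 such fits by Csf2rb2 (5.82 and 3.99), S100a16 (2.99 and 3.29), Tfeb (1.86 and 1.53) and Gstm2 (1.66 and 1.73). It was kept in 1 of 3 by Sparcl1 (3.23 and 3.74), Krt19 (3.35 and 7.28), Itga3 (1.83 and 0.89), Lats2 (-1.79 and -1.95), Rsad2 (-4.11 and -2.50) and Insig1 (-1.46 and -2.55), and in none by Oas1a (-5.28 and -5.15) and Nes (-1.37 and -1.29). Csf2rb2, Gsta2 and Gstm2 have near-identical copies that can share their reads.

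Some of these genes were also abundant in ih_STC_BM, a line not tested against C12. S100a16 averaged 46.1 CPM in C12 and 54.6 CPM in ih_STC_BM, Sparcl1 averaged 47.2 CPM in C12 and 39.7 CPM in ih_STC_BM, and Aqp5 averaged 476 CPM in C12 and 242 CPM in ih_STC_BM, where its highest library had 475 CPM. Aldh3a1 averaged 3283 CPM in C12, 52.3 CPM in ih_BCTC and 45.8 CPM in ih_STC_BM.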

How the results depend on the processing

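No paired analysis was possible because the labels give no replicate numbers that the groups share. Of 183 tested named genes 181 were called, and 155 kept their direction and call in every setting. The number of genes called (9742) was 9758 with RLE scaling, 9946 with upper quartile scaling, 10087 without the filter, 9797 in DESeq2, 9915 in limma-voom, 9354 with C12 and MDSC alone, 6766 above a log2 change of 1, 7350 with the intron share as a covariate, 6703 without C12 libraries 1 and 2 and 6771 with the MDSC libraries summed. Genes higher numbered 2970 with MDSC summed, and genes lower 3175 with the intron covariate and 3123 without C12 libraries 1 and 2. Upper quartile scaling moved the median of all genes by 0.27 and the split to 5727 higher and 4219 lower.

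Leaving out 1 library gave 8698 to 10142 genes called, 4339 to 4906 higher and 4162 to 5236 lower. It gave 1301 to 4608 against ih_CTC and 1173 to 2814 against ih_DCTC, 260 to 271 list members higher and 313 to 333 lower, 515 to 667 genes off and 296 to 396 on in C12, 1063 to 1424 close genes and 2 to 164 genes of wide spread. At 20 CPM, 257 genes were off and 99 on. Beyond a log2 change of 2, PU.1 motifs were in 6.21% of lower promoters, AP-1 in 5.5% of higher and 4.54% of lower, and TEAD in 14.7% of higher. With the intron covariate the sign turned for Idi1 (0.30), Trp53 (-0.68) and Xist (3.70). The cause was not tested.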

Other observations

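Genes of cell types that cells washed from the peritoneal cavity could bring with them were read beside the lists above. Of 8 tested mesothelial genes, which mark the lining of that cavity, 6 were higher and 1 lower in C12 than in MDSC. Their median was 5.72, or 4.85 with genes at 0 counts set to their bound. Of all genes tested 31.3% were higher. The higher calls fell to 4 with the intron share as a covariate and in a fit of C12 and MDSC alone. That covariate ended the calls of Krt8 and Krt18 (adjusted p = 0.769 and 0.242, edgeR). Msln, the surface protein mesothelin, had 93.9, 92.6 and 109 CPM in C12 libraries, against 0.221, 0.12 and 0.32 CPM in MDSC libraries (log2 8.71, SE 0.68, adjusted p = 9.8e-09, edgeR). Krt19, a keratin of simple epithelium, had 22.4, 49.6 and 6.19 CPM in C12 libraries and no counts in MDSC libraries, at least 212-fold higher. Wt1, a factor of mesothelium and kidney, had 1.1, 0.548 and 6.58 CPM in C12 libraries and no counts in MDSC libraries, at least 28.5-fold higher. The groups were separated for all 3, yet Upk1b and Muc16, other markers of mesothelium, had no counts in C12 and Upk3b was seen in 1 C12 library alone, at 0.235 CPM.

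Of 8 tested epithelial genes 2 were higher and 2 lower in C12 (median 0.92). That is 25% each, near the 31.3% and 30.5% of all genes tested. Epcam, the epithelial adhesion protein, had 0.44, 0.877 and 0.862 CPM in C12 libraries, against 9.72, 11.8 and 12.5 CPM in MDSC libraries, while Krt14, a keratin of basal epithelium, had 9.12, 18.7 and 10 CPM in C12 libraries and no counts in MDSC libraries. Of 10 glial and neural genes 6 were higher and 2 lower in C12 (median 3.68, or 2.47 with genes at 0 counts set to their bound), and 3 were higher in a fit of C12 and MDSC alone. Nes, the intermediate filament nestin, had 41.9, 36.8 and 31.9 CPM in C12 libraries, against 0.331, 0.12 and 0.426 CPM in MDSC libraries, while Olig1 and Mog had no counts in either group.

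Of 8 endothelial genes 4 were lower and 0 higher in C12 (median -2.62, or -2.82 with genes at 0 counts set to their bound), and a fit that held intron share as a covariate called 2 lower. Of 10 megakaryocyte and platelet genes 7 were lower and 0 higher (median -2.87), and 1 was lower with that covariate. Of 10 tested genes of resident peritoneal macrophages 6 were lower and 2 higher in C12 (median -3.12), and 3 were lower with that covariate. Gata6, the factor of those macrophages and of mesothelium, had 2.42, 2.85 and 4.55 CPM in C12 libraries, against 0, 0.12 and 0 CPM in MDSC libraries, and F10, the coagulation factor X, had no counts in C12 libraries and 81.6, 77.1 and 77.5 CPM in MDSC libraries, at least 813-fold lower.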
